A study of Mus musculus with 6 samples.

Results

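The genes described here are those whose transcripts were most abundant in wild-type mouse eggs among the protein-coding rows of a table of genes that differ between eggs with and without the kinase gene Mtor. Members were chosen by their level in the 3 wild-type libraries: a mean of at least 100 FPKM (fragments per length of transcript and per mapped fragments) with at least 2 of these libraries at 50 FPKM or more. A total of 33 protein-coding rows passed these bounds. After 8 named genes (Prc1, Nlrp5, Zp2, Gtsf1, Ndufa5, Eif5a, Gm13103 and Gm13084) were set aside by the same rule, 25 members remained of the 516 rows of the table, 452 of which are protein-coding.

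RNA was sequenced from ovulated eggs arrested at metaphase of meiosis II, taken from C57BL/6 females at postnatal day 24. In the Mtor CKO group (n = 3 libraries) Mtor had been deleted by Zp3-Cre, a recombinase driven by the promoter of a zona pellucida gene and active in growing oocytes. The WT group (n = 3 libraries) was labelled wild type, and whether these mice carried an unrecombined conditional allele is not given in the sources used here. Follicle growth was stimulated in all females with PMSG (5 IU, age 22 days) and ovulation with hCG (5 IU, after a further 48 h), and oviducts were emptied of eggs 14 h later. Each library was made from 5 eggs pooled in lysis buffer, with 17 PCR cycles. The labels do not say whether libraries came from separate mice, so the spread between libraries may be partly technical. FPKM is relative to the mapped fragments of a library, so fewer copies of a transcript per egg and more RNA of other genes cannot be told apart.

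A fully grown mammalian oocyte has nearly stopped transcription, so the egg and the early embryo live on messenger RNAs stored during growth. These stored transcripts are held, translated or destroyed through their 3′ ends: cytoplasmic polyadenylation elements recruit the CPEB proteins, and the length of the poly(A) tail sets how well a message is translated and how long it lasts. MTOR, as the kinase of the complexes MTORC1 and MTORC2, promotes translation and growth and restrains autophagy.

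Among the 25 members, 23 had a lower mean in Mtor CKO eggs and 2, Khsrp and Sarnp, a higher one. They encode a condensin subunit (Smc4), signalling phosphatases (Dusp7, Ptp4a2) and chromatin and transcription factors (Ing3, Vps72, Gtf2a1). Others encode proteins that bind RNA (among them Hnrnpk, Khsrp and Sarnp) or the poly(A)-binding protein (Paip2), and several proteins of membranes and metabolism. The mean of the 23 lower members in Mtor CKO ranged from 0.934% to 54.1% of the WT mean, with a median of 44.7%. These values are a description and not a test, because the rule picked high WT values and the rows of the table had already been picked for a difference of more than 1 on the log2 scale in the authors' deposited table. Limma's moderated test on log2(FPKM + 1), run over all 471 rows with sufficient level, called 23 of the 25 members (22 lower, 1 higher in Mtor CKO) at an adjusted p under 0.05. It called 73.7% of the 471 tested rows, and 60.3% of the 471 were called as lower. The rule used the same contrast, so nothing is read from the members' count. Khsrp and Vps72 were the members not called. Leaving out CKO replicate 1, CKO replicate 3 or WT replicate 2 left 0 of the 25 called by limma (15, 14 and 11 had an unadjusted p under 0.05), and leaving out WT replicate 3 or WT replicate 1 left 1 and 13. The whole table lost its calls alike: of 471 rows, 4, 3 and 3 were called without CKO replicate 1, CKO replicate 3 and WT replicate 2, and 4 and 246 without WT replicate 3 and WT replicate 1.

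**Figure D1:**
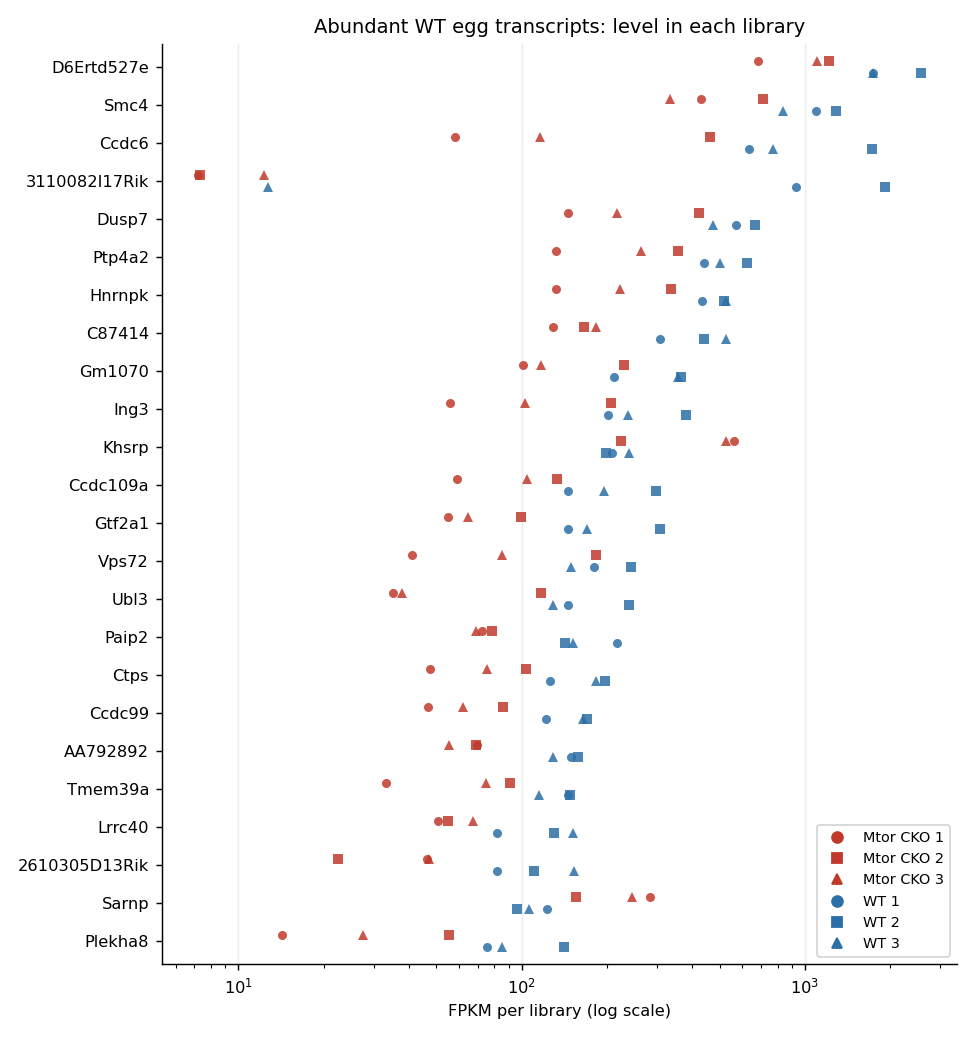
FPKM of 24 of the members in each library on a log scale, with Mtor CKO libraries in red above WT libraries in blue and the symbol giving the replicate number. In 20 of these 24 the libraries of the genotypes do not overlap, against 74.3% of the 471 tested rows. For 3110082I17Rik the WT 3 point, at 12.7 FPKM, stands beside the CKO points.

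The 3′ ends of these messages were read from GENCODE M21 transcripts (GRCm38, the assembly named mm10), in the last 100 nucleotides of the 3′ untranslated region of the longest complete coding transcript. Of the 25 members, 23 had such a window, and Smc4 and Gm1070 did not. The polyadenylation hexamers AATAAA or ATTAAA were found in 21 of 23 windows, against 78.6% of 19754 coding genes. TTTTAT or TTTTAAT, the forms of the cytoplasmic polyadenylation element searched on the RNA strand, were found in 7 of 23 windows (30.4%), against 18.5% of 363 other tested rows and 17.8% of all coding genes. These shares are descriptions with no test, and the ends used in eggs may be other ones. Both a hexamer and an element were found in 7 of 23 members' windows (30.4%), in 15.4% of the other tested rows and in 14.4% of all coding genes. In 4 members a hexamer and an element lay within 30 nucleotides, which was not counted for other genes. Those sites are shown because they include the end of the most abundant member and of a member that was higher in Mtor CKO. Capitals mark the hexamer and the element. The gap between them is 17 nucleotides in D6Ertd527e and 14 in Sarnp.
D6Ertd527e, chr6:87112953-87112982, + strand: TTTTATtattgtttgtttatttcAATAAAg
Gtf2a1, chr12:91555267-91555296, - strand: taatcatAATAAAgataTTTTATttattgc
Sarnp, chr10:128877585-128877614, + strand: tTTTTAATtatttttgcttattAATAAAaa
Plekha8, chr6:54645804-54645833, + strand: ttttagagtaTTTTATTAAAcgttcttcaa
In Plekha8 the element and the hexamer overlap by 2 bases, and in Gtf2a1 the hexamer comes first. The Sarnp element is TTTTAAT, and the other 3 are TTTTAT.

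The promoter windows of the members came from RefSeq (GRCm38.p6), from 250 bases before to 50 bases after an annotated start, and 19 members had at least 1 of 24 windows. Of these 24, 12 held GGGCGG (against 35.7% of 32851 windows of all genes), 14 held CCAAT (58.3%, against 37.4%), 3 held CACGTG (12.5%, against 7.15%) and 0 held TATAAA (against 13.6%). Each motif was searched on both strands, and the median GC content was 59.5% in members' windows and 52.7% in all windows. A match is a description of the letters and not a site. The windows of the most abundant member, of Ccdc6 and of the 2 members higher in Mtor CKO are shown as those of the top, of a far lower and of both higher members. Capitals mark the motifs other than TATAAA on either strand.
D6Ertd527e, chr6:87104496-87104795, + strand: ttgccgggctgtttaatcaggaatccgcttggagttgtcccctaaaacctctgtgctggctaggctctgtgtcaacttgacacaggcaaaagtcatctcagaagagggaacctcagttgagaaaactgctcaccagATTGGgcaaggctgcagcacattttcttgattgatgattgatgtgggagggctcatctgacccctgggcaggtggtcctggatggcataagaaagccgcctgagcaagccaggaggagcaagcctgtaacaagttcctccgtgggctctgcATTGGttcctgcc
Ccdc6, chr10:70096871-70097170, + strand: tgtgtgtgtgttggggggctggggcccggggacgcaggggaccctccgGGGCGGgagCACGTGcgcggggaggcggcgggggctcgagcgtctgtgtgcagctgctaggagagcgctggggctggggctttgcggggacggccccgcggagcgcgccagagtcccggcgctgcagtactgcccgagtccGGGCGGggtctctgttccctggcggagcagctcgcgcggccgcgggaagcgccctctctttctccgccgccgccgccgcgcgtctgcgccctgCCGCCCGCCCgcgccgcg
Khsrp, chr17:57031458-57031757, - strand: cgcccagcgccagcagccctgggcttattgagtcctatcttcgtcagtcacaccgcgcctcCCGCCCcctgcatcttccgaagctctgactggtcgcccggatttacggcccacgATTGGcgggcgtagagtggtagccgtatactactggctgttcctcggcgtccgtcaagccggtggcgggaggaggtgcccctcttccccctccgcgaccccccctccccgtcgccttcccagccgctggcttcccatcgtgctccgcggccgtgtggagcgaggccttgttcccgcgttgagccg
Sarnp, chr10:128821514-128821813, + strand: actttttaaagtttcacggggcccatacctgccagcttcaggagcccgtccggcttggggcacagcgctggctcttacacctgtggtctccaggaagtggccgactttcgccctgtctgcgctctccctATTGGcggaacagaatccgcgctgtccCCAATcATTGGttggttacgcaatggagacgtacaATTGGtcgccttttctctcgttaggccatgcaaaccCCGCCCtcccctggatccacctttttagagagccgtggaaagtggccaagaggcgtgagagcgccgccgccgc
The Sarnp window holds 4 CCAAT and 1 GGGCGG, that of Khsrp 1 of each, and that of D6Ertd527e 2 CCAAT and 0 GGGCGG. The Ccdc6 window holds 4 GGGCGG, a pair of them overlapping, and CACGTG.

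D6Ertd527e, a gene with no role given in the files, was the most abundant member in either genotype. It stood at 683, 1216 and 1098 FPKM in Mtor CKO libraries 1 to 3, against 1742, 2573 and 1741 FPKM in WT libraries 1 to 3. The genotypes did not overlap, and the log2 difference (of log2(FPKM + 1), Mtor CKO minus WT) was -1.03 (SE 0.39). The gene lies on chromosome 6 at 87104716 to 87113070, on the + strand, and none of its 50-base stretches occurs in another annotated transcript.

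The second in order was Smc4, the core ATPase subunit of the condensin complexes that compact and stiffen mitotic and meiotic chromosomes. Smc4 was at 430, 712 and 335 FPKM in Mtor CKO and at 1091, 1291 and 836 FPKM in WT. Every CKO library was below every WT library, with a log2 difference of -1.17 (SE 0.40). Its interval on chromosome 3 (69004683 to 69034690) also holds the microRNA genes Mir15b and Mir16-2. Smc4 was the single member on the list of 37 genes for the meiotic cell cycle and spindle, of which 6 are rows of the table. A second chromosome-segregation gene, listed as Ccdc99 and named Spdl1 in GENCODE, encodes Spindly, the adaptor that loads dynein onto kinetochores. Spdl1 was at 46.9, 86.1 and 62.0 FPKM in Mtor CKO, against 122, 169 and 164 FPKM in WT. Its libraries did not overlap either, with a log2 difference of -1.24 (SE 0.36).

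The messages of both signalling phosphatases were lower in Mtor CKO. Dusp7, a dual-specificity phosphatase that removes the activating phosphates of ERK kinases and is needed for timely meiotic resumption in mouse oocytes, was at 146, 422 and 216 FPKM in Mtor CKO and at 571, 663 and 472 FPKM in WT. Its log2 difference was -1.25 (SE 0.44). Ptp4a2, a membrane-anchored tyrosine phosphatase also called PRL-2, was at 132, 357 and 263 FPKM in Mtor CKO and at 438, 627 and 502 FPKM in WT. In both genes CKO replicate 2 came nearest to the WT libraries without reaching them. The log2 difference of Ptp4a2 was -1.15 (SE 0.43) and moved to -0.75 without CKO replicate 1, and its q-value in the authors' deposited table was 0.0873.

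Ccdc6, whose human counterpart is a fusion partner of RET in thyroid cancer, was 4.93-fold lower in Mtor CKO by the means. It stood at 58.0, 462 and 116 FPKM in Mtor CKO libraries 1 to 3 and at 636, 1724 and 772 FPKM in WT libraries 1 to 3. All CKO values were below all WT values, but CKO replicate 2 was 5.31 times the mean of the other CKO libraries. The log2 difference was -2.69 (SE 0.73), and it was -3.51 without CKO replicate 2 and -2.02 when CKO replicate 1 was left out. By mean level Ccdc6 ranked 8 in Mtor CKO and 3 in WT.

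The row 3110082I17Rik, with no role given in the files, has the fourth highest WT mean, which rests on 2 libraries. It was at 7.19, 7.32 and 12.3 FPKM in Mtor CKO, against 929, 1923 and 12.7 FPKM in WT. WT replicate 3 was just above the highest CKO library, so this member counts among those that do not overlap, and the WT SD of 956 FPKM is as large as the WT mean of 955 FPKM. Its log2 difference was -4.91 (SE 1.54), with -7.11 without WT replicate 3 and -3.55 when WT replicate 2 was left out. The interval (chromosome 5, 139359739 to 139460517) takes in 3 other coding genes, Gpr146, Gper1 and C130050O18Rik. Whether their exons overlap those of this gene, or their reads entered its level, was not tested. Of its 50-base stretches, 0.278% occur in transcripts of other genes.

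Members that bind RNA or the poly(A)-binding protein went in either direction. Hnrnpk, a nuclear protein that binds C-rich RNA and takes part in splicing and translation control, was at 132, 336 and 222 FPKM in Mtor CKO and at 434, 519 and 526 FPKM in WT (log2 difference -1.19, SE 0.41). Paip2, which binds the poly(A)-binding protein and restrains translation, was at 72.7, 78.5 and 68.9 FPKM in Mtor CKO and at 217, 143 and 152 FPKM in WT (log2 difference -1.18, SE 0.33). Neither gene overlapped between genotypes, and Paip2 had a small CKO spread, 73.4 ± 4.81 FPKM (SD, n = 3). The Hnrnpk interval takes in the coding gene Rmi1, and 14.5% of the 50-base stretches of Hnrnpk transcripts also occur in transcripts of other genes, most in Gm7964. The Paip2 interval takes in Slc23a1.

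Khsrp and Sarnp were the members with higher means in Mtor CKO, and both act on messenger RNA. Khsrp, also called KSRP, binds AU-rich elements in 3′ untranslated regions and recruits the decay machinery. It stood at 563, 223 and 527.2 FPKM in Mtor CKO libraries 1 to 3, against 209, 198 and 239 FPKM in WT libraries 1 to 3. CKO replicates 1 and 3 were well above WT and CKO replicate 2 lay inside the WT range, so the genotypes overlapped. The means differed 2.03-fold, with a log2 difference of 0.91 (SE 0.43), which was 1.34 without CKO replicate 2, 0.68 without CKO replicate 1 and 0.72 without CKO replicate 3. Sarnp, an RNA-binding partner of the TREX complex that exports messenger RNA from the nucleus, was at 285, 156 and 244 FPKM in Mtor CKO and at 123, 96.4 and 106 FPKM in WT. Its libraries did not overlap, the means differed 2.11-fold and the log2 difference was 1.03 (SE 0.36). For Sarnp, 37.2% of the 50-base stretches also occur in other genes' transcripts, nearly all in Gm6563, so its level is uncertain. The Khsrp interval takes in the coding gene Gm17949. By mean level Khsrp ranked 3 in Mtor CKO and 12 in WT, and Sarnp ranked 7 in Mtor CKO and 24 in WT.

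**Figure D2:**
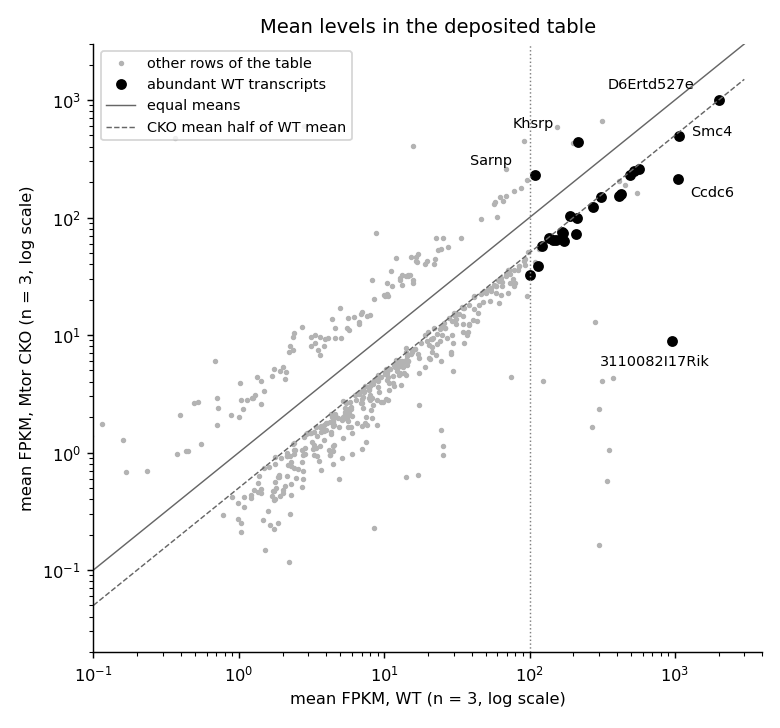
Mean FPKM in Mtor CKO (vertical) against WT (horizontal) for the rows of the table, on log axes; 4 rows with lower means are not drawn. The members are black, to the right of the dotted line at 100 FPKM. Most lie along the dashed line, where the Mtor CKO mean is 50% of the WT mean. Khsrp and Sarnp lie above the line of equal means, and 3110082I17Rik lies far below the dashed line. Lower rows had been picked for an Mtor CKO level under that same share of WT in the authors' deposited table. The members' place along the dashed line is therefore partly built in and is not read as a result.

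Chromatin and transcription genes among the members were lower in Mtor CKO by their means, and some of their libraries overlapped. Ing3, a subunit of the NuA4/TIP60 acetyltransferase complex that reads methylated histone H3, was at 55.6, 207 and 103 FPKM in Mtor CKO and at 201, 381 and 237 FPKM in WT. Vps72, a chaperone of the histone variant H2A.Z in the SRCAP and NuA4 complexes, was at 41.0, 183 and 85.1 FPKM in Mtor CKO and at 180, 242 and 150 FPKM in WT. For both, CKO replicate 2 reached the WT range while the other CKO libraries stayed below it. Their log2 differences were -1.30 (SE 0.51) for Ing3 and -1.10 (SE 0.53) for Vps72. Without CKO replicate 2 they were -1.78 for Ing3 and -1.64 for Vps72, and without CKO replicate 1 they were -0.84 for Ing3 and -0.58 for Vps72. Gtf2a1, which encodes the alpha and beta subunits of the general transcription factor TFIIA, was at 54.8, 99.2 and 64.6 FPKM in Mtor CKO and at 146, 307 and 170 FPKM in WT. The libraries of Gtf2a1 did not overlap, its log2 difference was -1.47 (SE 0.41), and its q-value in the authors' deposited table, 0.169, was the highest of the members.

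Members of metabolism and membranes were all lower. Their libraries did not overlap, which was also so in 74.3% of the tested rows, counting either direction. Mcu, listed as Ccdc109a, is the pore of the mitochondrial calcium uniporter and was at 59.1, 133 and 104 FPKM in Mtor CKO, against 146, 298 and 196 FPKM in WT. Ctps, cytidine triphosphate synthase, was at 47.4, 103 and 75.4 FPKM in Mtor CKO, against 126, 197 and 182 FPKM in WT. Ubl3, a membrane-anchored ubiquitin-like protein, was at 35.2, 117 and 37.7 FPKM in Mtor CKO, against 145, 240 and 129 FPKM in WT. Their log2 differences were -1.12 (SE 0.43), -1.19 (SE 0.39) and -1.60 (SE 0.51) in that order. Plekha8, also called FAPP2, transfers glycosphingolipid from the Golgi and was the member with the lowest WT mean, at 14.3, 55.5 and 27.4 FPKM in Mtor CKO and 75.5, 141 and 85.2 FPKM in WT. Tmem39a, a membrane protein of the endoplasmic reticulum, was at 33.3, 91.2 and 75.0 FPKM in Mtor CKO and at 146, 148 and 115 FPKM in WT. The log2 difference was -1.75 (SE 0.51) for Plekha8 and -1.14 (SE 0.43) for Tmem39a, which moved to -0.71 without CKO replicate 1. Fkbp14 lies in the Plekha8 interval, and Gm10322 in that of Mcu.

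Of 5 further members, 4 have provisional names. C87414 was at 129, 167 and 182 FPKM in Mtor CKO and at 307, 438 and 527.3 FPKM in WT, and AA792892 at 69.8, 68.8 and 55.2 FPKM in Mtor CKO and at 149, 158 and 129 FPKM in WT. These genes lie on chromosome 5, at 93634993 to 93671551 and at 94339749 to 94385010. They are uncertain as single genes, because 58.5% of the 50-base stretches of C87414 and 45.0% of those of AA792892 also occur in transcripts of other genes. Gm1070 was at 101, 230 and 117 FPKM in Mtor CKO and at 212, 366 and 356 FPKM in WT, with CKO replicate 2 inside the WT range. The authors' deposited table lists Gm1070 as protein-coding, while GENCODE M21 lists it as a lincRNA, and its interval also takes in the coding genes Smyd1 and Krcc1. The row 2610305D13Rik, named Zfp979 in GENCODE, was at 46.5, 22.5 and 47.2 FPKM in Mtor CKO and at 81.5, 111 and 152 FPKM in WT. It lies 0.806 Mb from Mtor on chromosome 4 and shares 26.7% of its 50-base stretches with other genes, Zfp600 foremost. Lrrc40, a leucine-rich repeat protein, was at 50.6, 54.9 and 67.2 FPKM in Mtor CKO and at 82.0, 130 and 151 FPKM in WT. The log2 differences of these 5 ran from -1.57 for 2610305D13Rik to -1.03 for Lrrc40.

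**Figure D3:**
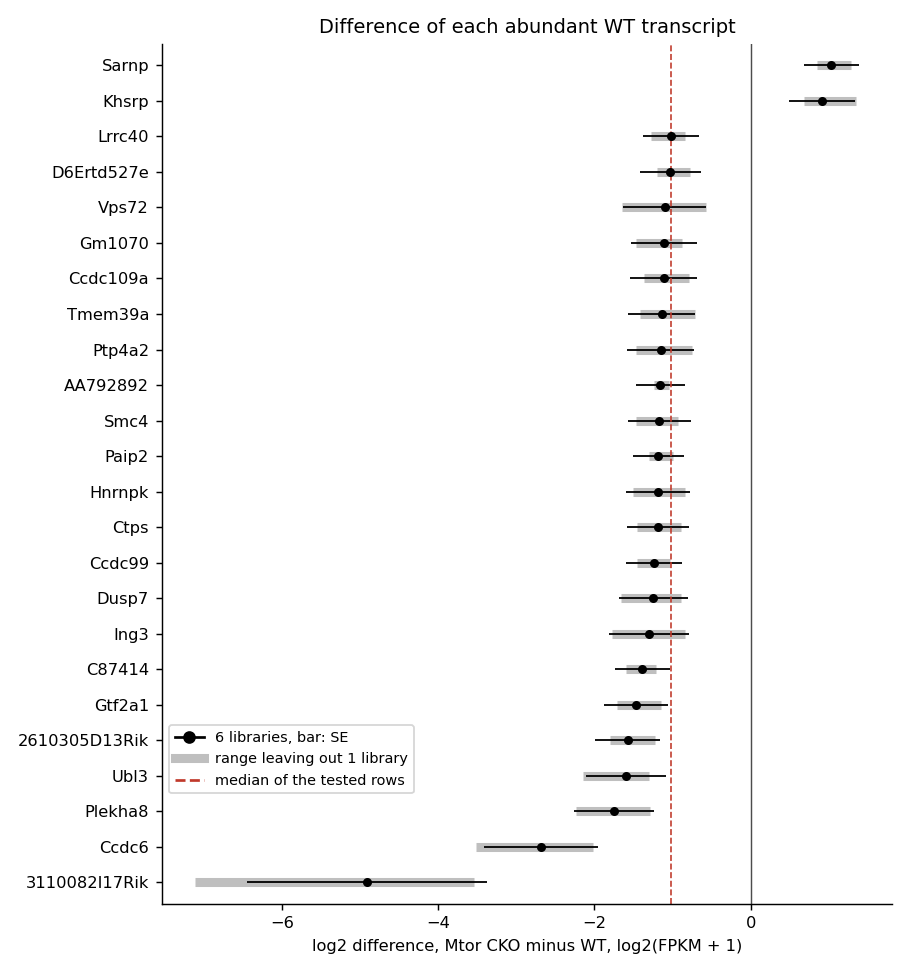
Difference in log2(FPKM + 1) of 24 of the members, Mtor CKO minus WT, with its SE, and in grey the range when 1 library is left out. The dashed line is the median of the 471 tested rows, -1.03; 20 of the lower members lie between -1.75 and -1.03, and Ccdc6 and 3110082I17Rik below them.

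The members' differences were close to that of the table as a whole. Their median log2 difference was -1.19, against -1.03 over the 471 tested rows. With differences centred on the table's median, which moves every value by 1.03, the members' median was -0.16. The rows had been picked for a difference of more than 1, so this median lies near that cutoff. Centring therefore takes most lower rows toward no difference by construction, and no conclusion is drawn from the lost lower calls. Limma then called 2 members, both as higher, and 0 as lower, and 4 of the 25 had an unadjusted p under 0.05. Over the 471 rows it called 99 as higher and 1 as lower after centring, so few lower calls were left anywhere in the table. The libraries of the genotypes did not overlap in 21 of the 25 members, against 74.3% of the tested rows, and Gm1070, Ing3, Khsrp and Vps72 overlapped. A q-value no greater than 0.05 stood beside 20 members in the authors' deposited table, against 49.2% of all rows, and Ptp4a2, Hnrnpk, Ing3, Gtf2a1 and Tmem39a were above that bound. Since choosing by WT level leans toward lower values in Mtor CKO, the same bounds were also applied to the Mtor CKO libraries. That rule took 22 rows, of which 11 were higher and 11 lower in Mtor CKO, and 13 of the 22 were members. It leans toward higher values in Mtor CKO, so its split is not read as a result either.

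The libraries within a genotype were uneven over these genes. CKO replicate 2 was the highest CKO library in 18 of the 23 lower members (78.3%) and the lowest in both higher members, so it was nearer to WT in either direction. Over the tested rows it was the highest CKO library in 64.5% of 361 lower rows and the lowest in 71.8% of 110 higher rows. WT replicate 2 was the highest WT library in 18 of the 25 members, against 50.1% of the tested rows. Without CKO replicate 2 the libraries did not overlap in 25 of 25 members, against 426 of the 471 tested rows. Limma then called 25 members and 389 of the 471 rows, and the median log2 difference was -1.46 over the members and -1.18 over the tested rows. The summed FPKM of the members was 3425, 5769 and 4354 in Mtor CKO libraries 1 to 3, which is 23.7%, 35.7% and 31.2% of the table's summed FPKM. In WT libraries 1 to 3 it was 8756, 13661 and 8506, which is 45.8%, 46.3% and 40.8%. The rule chose high WT values, so the larger WT sums and shares are built in and are not read as a result. Without 3110082I17Rik the sums were 3418, 5762 and 4342 in Mtor CKO libraries 1 to 3. In WT libraries 1 to 3 they were then 7827, 11738 and 8493. The median coefficient of variation of a member was 37.7% among CKO libraries and 24.8% among WT libraries. Over the tested rows it was 41.5% among CKO libraries and 29.4% among WT libraries.

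**Figure D4:**
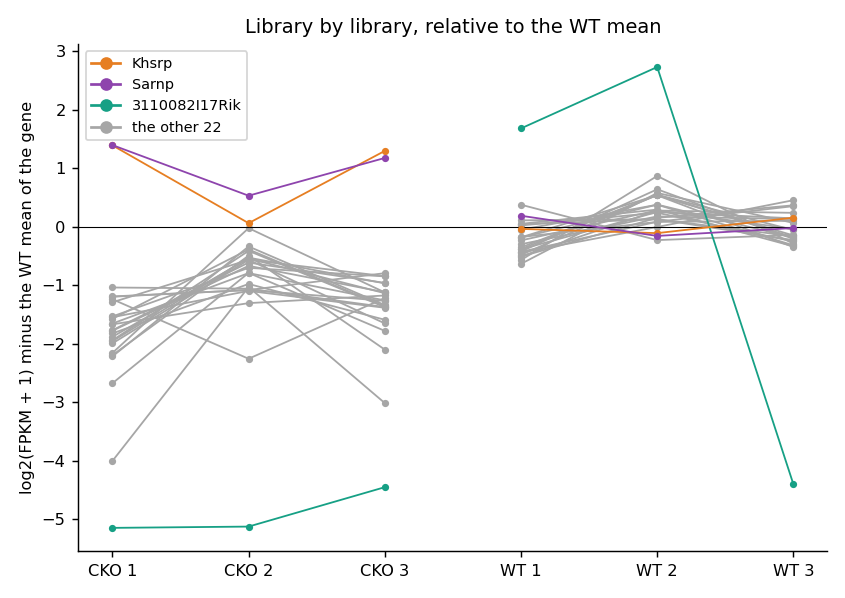
log2(FPKM + 1) of each member minus its own WT mean, by library, with Mtor CKO at the left and WT at the right. CKO 2 lies closest to the WT mean for most members in grey and for Khsrp and Sarnp, and 3110082I17Rik drops in WT 3.

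The order of the members by level was partly kept between the genotypes. The Spearman correlation of CKO and WT means over the 25 members, which share libraries, was 0.653 as a description. Of the 24 pairs of neighbours in the order of CKO means, 21 differed by less than the larger SD of the pair, and of the 24 in the order of WT means, 23 did. In Mtor CKO 13 members had a mean of 100 FPKM or more. Just inside the bound were Plekha8, Sarnp and 2610305D13Rik, with WT means of 101, 108 and 115 FPKM. Just outside it were Nlrp4g, Mest and Unc13d, with WT means of 97.5, 96.7 and 95.5 FPKM. A further 7 protein-coding rows had a WT mean of 100 FPKM or more and failed the condition on 2 libraries. These were Spink10, Hdac4, Tex9, Nop14, Ostb, Pnpla1 and Nf1, with the highest WT library from 36.3 times (Nf1) to 2987 times (Pnpla1) the next.

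Of facts that touch every value here, Mtor itself was not a row of the table, so the deletion was not checked from its transcript. Of the 13 oocyte markers, Zp2 and Nlrp5 were rows, and both were lower in Mtor CKO with no overlap, as most members were. Zp2 was at 79.8, 84.2 and 73.1 FPKM in Mtor CKO and at 154, 184 and 152 FPKM in WT. Nlrp5 was at 174, 150 and 161 FPKM in Mtor CKO and at 295, 721 and 636 FPKM in WT. Of the 14 cumulus and granulosa markers, Vcan and Mro were rows, with a summed level of 1.68 to 3.15 FPKM in Mtor CKO and 4.50 to 9.86 FPKM in WT. Vcan was listed at 0 in the 3 CKO libraries and in WT replicate 3. Of the 6 oviduct epithelium markers, Krt7 was a row, at 7.81, 4.23 and 10.1 FPKM in Mtor CKO and at 3.59, 2.45 and 4.40 FPKM in WT. The part of cumulus and oviduct cells in the members' differences was not tested. Of the 7 blood and immune markers, 0 were rows. The rows of the table had been picked for a difference, so a marker that is not a row may still be expressed. The marker rows therefore do not show how the markers of a cell type behave as a set, or that a cell type is absent.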

How the data were processed

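Per the labels, RNA of 3 Mtor CKO and 3 WT libraries of 5 mouse eggs each was sequenced on an Illumina instrument. Per the submitters' processing notes, TopHat2 2.0.8b, Cufflinks 2.1.1 and Cuffdiff were used with mm10. The deposited FPKM values hold no counts, so the depth per library is unknown. The authors' deposited log2 fold change equalled log2 of CKO over WT group FPKM within 0.0001 in 513 of 516 rows, and p-values and q-values are as deposited by the authors. Table starts count from 0 and were raised by 1 (257 of 488 matched rows then equal the GENCODE start).

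Limma 3.58.1 (R 4.3.3) with the empirical Bayes trend was fitted to log2(FPKM + 1). The fit took the 471 of 516 rows that reached 1 FPKM in 3 or more libraries. The p-values were adjusted over these rows (Benjamini-Hochberg, threshold 0.05). The fit was also tested on simulated data with independent noise, without the uneven libraries seen here, so that run does not check the calls. Fold changes on this scale understate those of low genes. Alternatives were the pseudocount, the filter, centring, leaving out libraries, the replicate block and other bounds on the members. All members are named, by rule, except 1 that is not reported here but is counted. Shared sequence was counted in stretches of 50 bases. Members and lists were chosen with earlier results of these data known, and the grouping by role after the members were seen. Sequence on chromosome 18 is not reported here.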

Additional observations from a re-analysis of the deposited data

How the results depend on the processing

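With a pseudocount of 0.1, other filters, centring, the replicate block or each library left out, 23 members were lower and 2 higher. Entry to the table already required a log2 difference above 1 in size from the same data. The kept direction is therefore largely built in and is not read as a result. Filters and the replicate block leave a difference as it was (D6Ertd527e stayed at -1.03). After centring, D6Ertd527e (-0.005) and Lrrc40 (-0.001) were lower in sign only. Calls did not hold. Limma called 347 rows and 23 members. With differences centred on the median of the table it called 100 rows and 2 members, and the members' median was -0.164 in place of -1.19. That median lies near the cutoff by which the rows were picked, so the loss of lower calls on centring was built in. Leaving out 1 library gave from 3 to 389 called rows, from 0 to 25 called members and a members' median from -1.46 to -0.94. Over all 25 members and the alternatives of the fit, 164 values kept their side of the threshold, 129 lost it and 7 gained it; the cause was not tested. Fewer libraries leave less information on the spread. Leaving out library 2 of both genotypes, chosen after seeing the data, left 285 called rows and 22 called members.

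Bounds on the members moved the count by construction: limma called 56 of 62 members at a WT mean of 50 FPKM and 13 of 14 at 200 FPKM. With the bounds applied to the Mtor CKO libraries, which leans toward higher values in Mtor CKO, the median was -0.059. Leaving out members with another coding gene in the interval left 17 called of 18, and leaving out those sharing at least 10% of their 50-base stretches, chosen after seeing the data, 18 of 20.

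With the replicate number as a block (replicate block), limma called 405 rows and 25 members. Over the tested rows, deviations of same-numbered libraries correlated at 0.11, 0.24 and 0.084. Differently numbered libraries were not compared in this way, so these values cannot decide whether the numbers pair the libraries. The main fit took the libraries as unpaired. Depth is unknown, so counting error could not be given.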
